A study of Homo sapiens with 2 samples.

Results

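The constitutive proteasome genes are those whose symbol is PSMA, PSMB, PSMC or PSMD followed by digits, without PSMB8, PSMB9 and PSMB10 and without pseudogenes and antisense genes. In the deposited table this rule found 33 of 19826 genes. By role, 13 encode the 20S core particle, 17 the 19S regulatory particle, and 3 (PSMD5, PSMD9 and PSMD10) encode chaperones that help to assemble the base of the 19S particle and leave it afterwards. Further subunits of the 20S and 19S particles fall outside the rule or were not analysed here, so the sums below are those of these members and not of whole particles.

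The cells came from MDA-MB-231, a mesenchymal breast cancer cell line without the usual hormone receptors, and had formed mammospheres, which are cell clusters that float because the plate does not let them attach. Before sphere culture they had been adapted as flat cultures for 30 days in high-glucose medium, at 2 mM metformin (the library titled Metformin) or at 0 mM (titled Wildtype, here a name for the untreated culture and not for a genotype). Spheres grew for 10 days in both cases and were taken apart with trypsin and EDTA. The labels give 1 library per dose, so differences lack any check against replicates, no test was possible, and every interval covers counting error only.

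The 2 mM library held 991 cells with 3264343 unique molecular identifiers (UMIs, tags that mark single captured transcripts), and the 0 mM library 1000 cells with 4403045. Median depth per cell was 2509 UMIs at 2 mM and 3386 at 0 mM, and the libraries shared 0 cell barcodes. Of the deposited barcodes, 95 at 2 mM and 96 at 0 mM held an unread base (N). Joining barcodes of 1 library that differ at 1 base left 883 cells at 2 mM and 931 at 0 mM. Some cells may therefore be split over several barcodes, and the cell numbers and per-cell values below are for unjoined barcodes. The 6 line markers VIM, CD44, KRT18, KRT8, AXL and CAV1 were all detected, with summed levels of 3083 and 4906 counts per 1000000 UMIs (CPM) at 2 mM and 0 mM. Markers of leukocytes, fibroblasts and endothelium summed to 16.8, 6.74 and 3.68 CPM at 2 mM and 6.13, 3.63 and 0.909 CPM at 0 mM. PTPRC, which defines leukocytes, had 1 UMI at 2 mM and 0 at 0 mM.

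The proteasome is the main protease of the cytosol and nucleus for proteins tagged with ubiquitin. Its 20S core is a barrel of stacked rings, with alpha subunits that gate the entrance and beta subunits of which PSMB5, PSMB6 and PSMB7 cut the substrate. The 19S particle caps the barrel: receptors in its base bind ubiquitin chains, its lid removes them, and the ATPase ring of the base unfolds the substrate and threads it in. The genes are known to be transcribed together, in human cells under the factor NFE2L1 when proteasome activity is short. Interferons induce PSMB8, PSMB9 and PSMB10, which take the places of PSMB5, PSMB6 and PSMB7 in new particles, the immunoproteasome.

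Proteasome transcripts as a whole differed little between the doses. The 13 core genes summed to 18207 UMIs and 5578 CPM (95% Poisson interval 5497 to 5659) at 2 mM, and to 24834 UMIs and 5640 CPM (5570 to 5711) at 0 mM. The ratio, 2 mM over 0 mM, was 0.989 with an exact conditional interval of 0.970 to 1.01. The 17 regulatory genes summed to 2988 CPM (2929 to 3048) at 2 mM and 3072 CPM (3021 to 3124) at 0 mM (ratio 0.973, 0.9475 to 0.998). There were thus 1.87 core UMIs for each regulatory UMI at 2 mM (1.82 to 1.91) and 1.84 at 0 mM (1.80 to 1.88), a quotient of 1.02 (0.984 to 1.05). This ratio is set within a library and so does not depend on how libraries are scaled. It was not equal at every depth. Quartiles of depth were cut within each library, so those of the 2 doses are not matched. The shallowest ran from 511 to 1246 UMIs at 2 mM and from 774 to 1661 at 0 mM, and the deepest began at 4364 and 5886. In the shallowest quartile of cells it was 2.05 at 2 mM (1.85 to 2.27) and 1.77 at 0 mM (1.62 to 1.92), and in the next 1.975 (1.845 to 2.12) and 1.71 (1.62 to 1.81). In the third it was 1.945 and 1.88, and in the deepest the order was turned, at 1.79 (1.73 to 1.85) and 1.86 (1.805 to 1.91).

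Member by member the picture was the same. Of the 33 members, 30 reached 50 CPM in one library or both together with a total of 50 UMIs. Of these 30, 0 differed 1.5-fold or more, against 8.36% of the 4105 genes compared (5.04% higher and 3.31% lower). Their median log2 ratio was -0.05, that of all genes compared 0.02. The quartiles of the members were -0.20 and 0.04 and those of all genes -0.18 and 0.22. Ratios were above 1 for 12 members and below 1 for 18. This split depends on scaling, since with TMM factors 5 were above 1 (PSMA7, PSMB1, PSMD1, PSMD7 and PSMD14) and 25 below, and the median of all genes was then -0.07. Levels were not divided by gene length, so values are compared between libraries or states and not between genes.

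**Figure D1:**
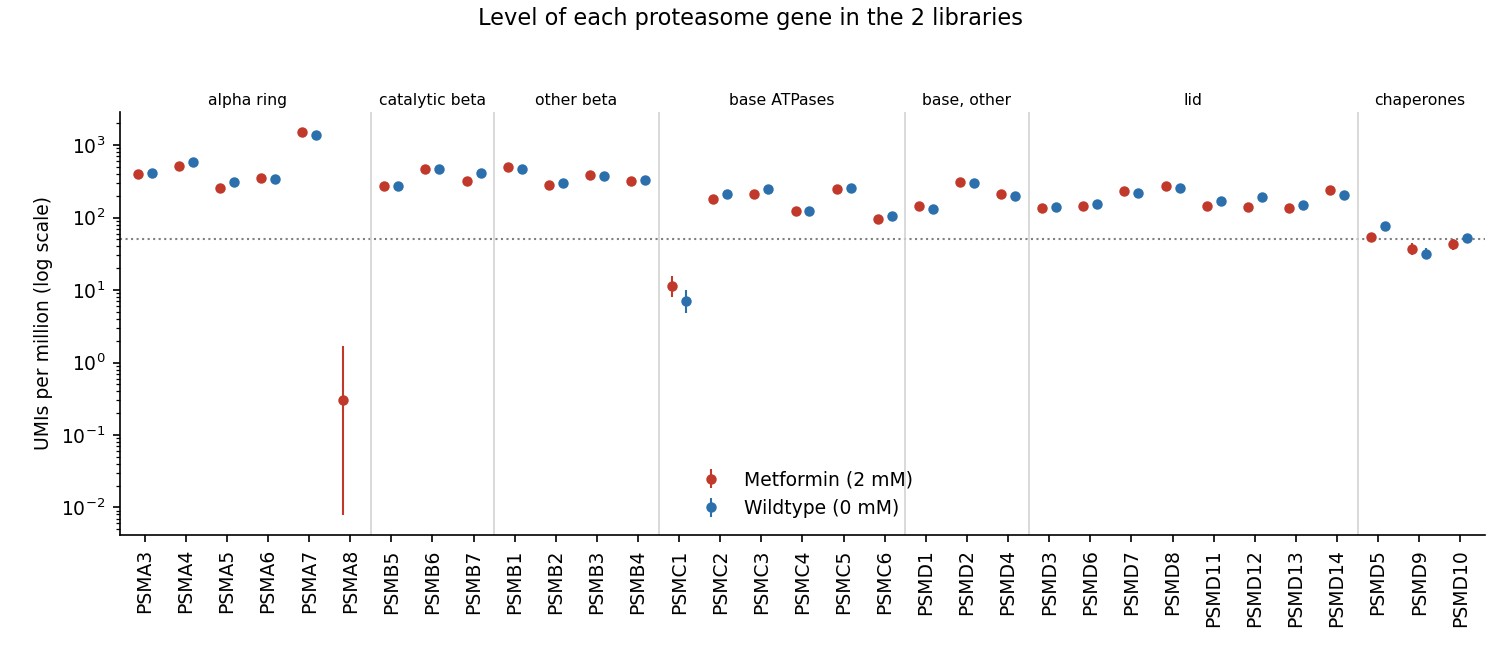
CPM (log axis) of each of the 33 genes at 2 mM (red) and 0 mM (blue), grouped by role, with 95% Poisson intervals. The dotted line is the 50 CPM minimum. PSMC1, PSMA8 and PSMD9 lie below it in both libraries, and no point is drawn for the 0 UMIs of PSMA8 at 0 mM.

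Among alpha subunits, which form the outer rings and the gate of the core, PSMA7 had 1506 CPM at 2 mM against 1372 CPM at 0 mM. Its ratio of 1.10 (1.06 to 1.14) was one of the highest of the core (log2 0.13, but 0.048 with TMM factors and 0.23 with cells weighted equally), and its 4915 and 6040 UMIs carried a large part of the core sum. Without PSMA7 the log2 ratio of the core sum was -0.07 against -0.02 with it. PSMA5 had 256 CPM at 2 mM against 310 CPM at 0 mM (ratio 0.826, 0.757 to 0.901). PSMA4 had 511 CPM at 2 mM against 581 CPM at 0 mM (ratio 0.880, 0.827 to 0.936), so subunits of 1 ring lay on both sides of 1. PSMA3 was nearly level at 405 CPM at 2 mM against 413 CPM at 0 mM, and so was PSMA6 at 349 CPM and 340 CPM, a ratio of 1.03 (0.949 to 1.11). PSMA8, which stands in for PSMA7 in testis, had 1 UMI at 2 mM and 0 UMIs at 0 mM, where 3 counts correspond to 0.681 CPM.

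The 3 catalytic subunits differed among themselves. PSMB7, which carries the trypsin-like activity, had 323 CPM at 2 mM against 407 CPM at 0 mM (ratio 0.793, 0.734 to 0.856), the lowest ratio of the core. PSMB5, the chymotrypsin-like subunit, had 276 CPM at 2 mM against 275 CPM at 0 mM (ratio 1.01, 0.921 to 1.10). PSMB6, the caspase-like subunit, had 469 CPM at 2 mM against 474 CPM at 0 mM (ratio 0.990, 0.926 to 1.06). The beta subunits without activity lay close to 1. PSMB1 had 496 CPM at 2 mM against 466 CPM at 0 mM (ratio 1.06, 0.996 to 1.14), and PSMB3 had 382 CPM at 2 mM against 374 CPM at 0 mM (ratio 1.02, 0.949 to 1.10). PSMB2 had 286 CPM at 2 mM against 299 CPM at 0 mM, and PSMB4 had 318 CPM and 329 CPM.

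In the 19S base, the ATPases were lower on the whole and the scaffold subunits were not. The 6 ATPase genes summed to 869 CPM at 2 mM against 952 CPM at 0 mM (ratio 0.913, 0.870 to 0.958). PSMC3 had 210 CPM at 2 mM against 247 CPM at 0 mM (ratio 0.850, 0.771 to 0.936), and PSMC2 had 181 CPM at 2 mM against 209 CPM at 0 mM (ratio 0.866, 0.780 to 0.962). PSMC6 (94.4 CPM at 2 mM against 107 CPM at 0 mM), PSMC5 (247 CPM and 258 CPM) and PSMC4 (125 CPM in each) lay nearer 1. The remaining ATPase gene, PSMC1, had 37 UMIs at 2 mM and 31 at 0 mM, or 11.3 and 7.04 CPM. It was under the minimum and was not compared. PSMD2 and PSMD1, the large scaffolds of the base, had 314 CPM at 2 mM against 304 CPM at 0 mM, and 145 CPM at 2 mM against 133 CPM at 0 mM. PSMD4, a ubiquitin receptor, had 210 CPM at 2 mM against 200 CPM at 0 mM (ratio 1.05, 0.950 to 1.16).

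The lid held both the highest and the lowest ratio of the regulatory particle. PSMD14, the deubiquitinase that strips ubiquitin chains from the substrate before it enters the core, had 241 CPM at 2 mM against 202 CPM at 0 mM (ratio 1.19, 1.08 to 1.32). PSMD7, its partner in the lid, had 235 CPM at 2 mM against 216 CPM at 0 mM (ratio 1.09, 0.990 to 1.20). PSMD8 had 273 CPM at 2 mM against 258 CPM at 0 mM (ratio 1.06, 0.968 to 1.16). The scaffold subunit PSMD12 stood at the other end, with 140 CPM at 2 mM against 193 CPM at 0 mM (ratio 0.724, 0.645 to 0.8125). PSMD11 had 146 CPM at 2 mM against 170 CPM at 0 mM. PSMD3, PSMD6 and PSMD13 had 136, 144 and 135 CPM at 2 mM and 141, 154 and 149 CPM at 0 mM.

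Of the assembly chaperones with PSMD names, PSMD5 had the lowest ratio of all members, with 53.6 CPM at 2 mM against 77.4 CPM at 0 mM (0.692, 0.574 to 0.833). PSMD10, also known as gankyrin, had 42.6 CPM at 2 mM against 52.9 CPM at 0 mM (ratio 0.805, 0.6475 to 0.997). It reached the 50 CPM minimum at 0 mM alone. PSMD9 had 36.8 CPM at 2 mM against 31.8 CPM at 0 mM and was below the minimum. With TMM factors PSMD5 was the only member past 1.5-fold, on the lower side. The share of all genes past it with these factors is not given here.

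**Figure D2:**
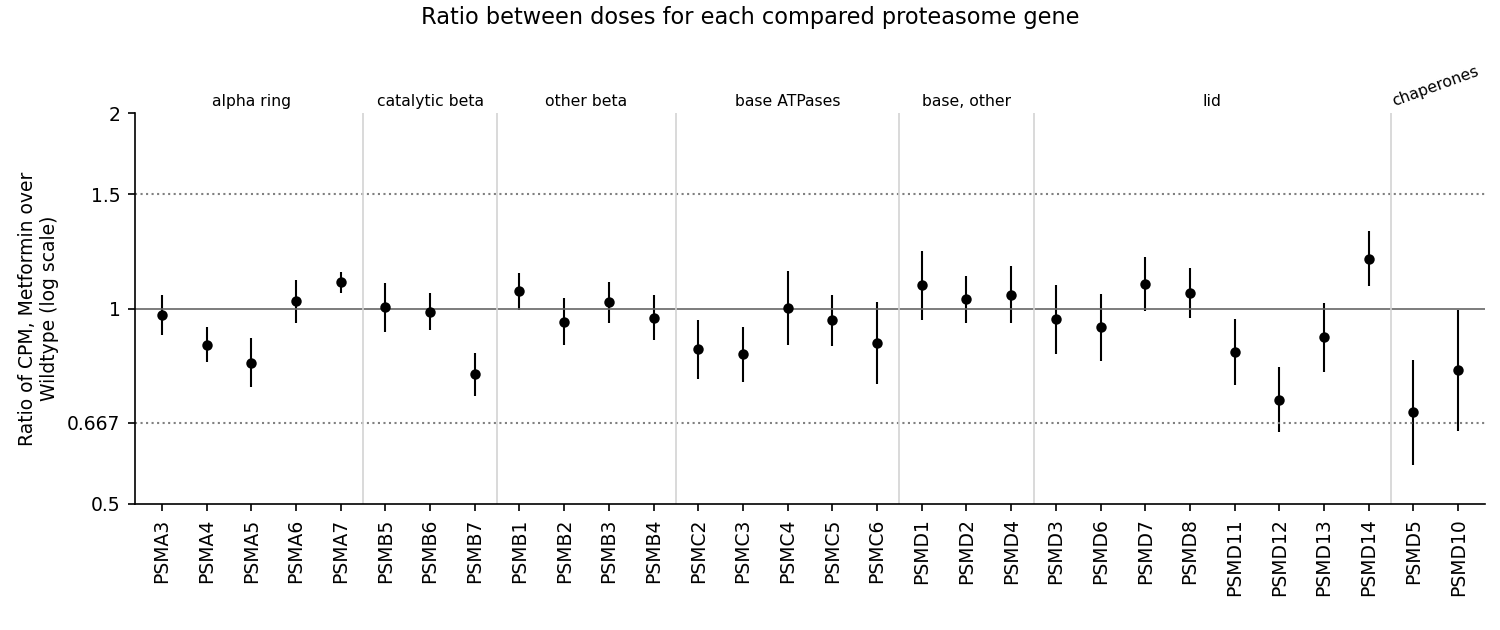
Ratio of CPM, 2 mM over 0 mM (log axis), of the 30 members compared, grouped by role, with exact conditional 95% intervals that cover counting error only. Dotted lines mark 1.5-fold either way. All points lie between them, with PSMD14 highest at 1.19 and PSMD5 lowest at 0.692.

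The promoters of members at both ends of this range are shown because their ratios differ most while they serve the same particle. The sequences are from RefSeq on GRCh38.p14, not the build of the counts, and run from 250 bases before to 50 after the gene's start. Entries were found for 28 of the 33 members. Capitals mark 4 motifs searched on both strands: TGACNNNGC, the core of the antioxidant response element that NFE2L1 and its relatives are known to bind, CCAAT, the GC box GGCGGG, and CCGGAAG, an ETS-type motif. The first pair, PSMD14 (chr2:161308175-161308474, plus strand) and PSMD7 (chr16:74296564-74296863, plus strand), had the highest ratios of the compared members with an entry. The second, PSMD5 (chr9:120842873-120843172, minus strand) and PSMD12 (chr17:67366528-67366827, minus strand), had the lowest.
PSMD14: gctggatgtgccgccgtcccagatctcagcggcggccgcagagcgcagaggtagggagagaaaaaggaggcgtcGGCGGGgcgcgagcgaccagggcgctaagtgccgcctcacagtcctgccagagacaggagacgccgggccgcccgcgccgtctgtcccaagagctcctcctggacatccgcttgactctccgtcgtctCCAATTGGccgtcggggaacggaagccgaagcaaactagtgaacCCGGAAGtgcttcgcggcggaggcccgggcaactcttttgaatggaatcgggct
PSMD7: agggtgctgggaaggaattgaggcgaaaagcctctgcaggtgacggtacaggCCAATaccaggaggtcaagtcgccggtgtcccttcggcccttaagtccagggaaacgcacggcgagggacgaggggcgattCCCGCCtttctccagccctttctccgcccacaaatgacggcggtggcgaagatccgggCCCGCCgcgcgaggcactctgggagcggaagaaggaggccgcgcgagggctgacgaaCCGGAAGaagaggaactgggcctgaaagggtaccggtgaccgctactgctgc
PSMD5: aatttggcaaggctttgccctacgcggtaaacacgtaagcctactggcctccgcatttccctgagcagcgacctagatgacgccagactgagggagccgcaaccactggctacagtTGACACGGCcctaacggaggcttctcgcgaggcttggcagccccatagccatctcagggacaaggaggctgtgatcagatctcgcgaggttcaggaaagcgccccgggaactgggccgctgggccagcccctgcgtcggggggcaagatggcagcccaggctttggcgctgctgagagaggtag
PSMD12: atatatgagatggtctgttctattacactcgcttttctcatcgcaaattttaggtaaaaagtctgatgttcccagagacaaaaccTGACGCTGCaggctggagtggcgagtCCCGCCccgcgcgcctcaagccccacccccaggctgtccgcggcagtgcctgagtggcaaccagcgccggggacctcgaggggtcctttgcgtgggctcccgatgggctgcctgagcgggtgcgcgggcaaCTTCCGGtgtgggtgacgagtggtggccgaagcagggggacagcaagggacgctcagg

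In these windows the first pair held CCAAT and an ETS-type motif and no TGACNNNGC, and the second pair held TGACNNNGC and no CCAAT. The ETS-type motif does not set the pairs apart, since PSMD12 held it too, and a GC box was in all but PSMD5. This is a reading of 4 promoters and draws nothing about the factors. Outside these pairs TGACNNNGC was found in members on both sides of 1, such as PSMD1 (ratio 1.09) and PSMA4 (0.880). Over the 34 promoter entries of members, some genes having several, TGACNNNGC was found in 9 (26.5%), against 13.3% of all 35116 promoters of the same length. CCAAT was found in 15 (44.1%, against 34.6%) and GGCGGG in 23 (67.6%, against 45.0%). CCGGAAG was found in 12 (35.3%, against 10.3%), among them the promoters of 9 of 16 regulatory and 2 of 9 core genes with an entry.

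The other genes of the pathway, from lists of its functional groups, mostly stayed close to 1 as well. Of the activator and inhibitor genes, PSME4, a large cap that opens the core without ubiquitin, had 63.1 CPM at 2 mM against 40.9 CPM at 0 mM (ratio 1.54, 1.26 to 1.90). It was the only one of 5 past 1.5-fold, against 8.36% of all genes compared. It reached the 50 CPM minimum at 2 mM alone, the dose at which it was higher. PSME1 (0.989) and PSME2 (1.05), which form the cap that goes with immunoproteasomes, PSME3 (0.988) and the inhibitor PSMF1 (1.003) lay near 1. Among 7 further proteasome-bound proteins, the ubiquitin ligase gene UBE3C had 50.5 CPM at 2 mM against 25.2 CPM at 0 mM (ratio 2.005, 1.57 to 2.57). It was the only one of these 7 past 1.5-fold, against 8.36% of all genes. UBE3C barely reached the 50 CPM minimum, and at 2 mM alone, where it was higher. That ligase extends chains on substrates held at the proteasome. KIAA0368 (the proteasome adaptor also called ECM29) followed at 1.28 (1.08 to 1.53) and the small lid subunit SHFM1 at 1.23 (1.14 to 1.32). ADRM1, a ubiquitin receptor of the base, was on the other side at 0.833 (0.734 to 0.945), with TXNL1 at 0.932 and UCHL5 at 1.02.

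None of the assembly, delivery, ubiquitin and transcription genes compared passed 1.5-fold, against 8.36% of all genes compared. POMP, the chaperone that matures the core, had 791 CPM at 2 mM against 689 CPM at 0 mM (1.15, 1.09 to 1.21). PSMG3 was at 1.21 and PSMG1 at 0.943, and the median log2 ratio of the 5 assembly genes compared was 0.05. The delivery genes ran from UBQLN1 at 0.805 to VCP, the unfolding ATPase, at 1.08, and the ubiquitin genes from UBB at 0.881 to the activating enzyme UBA1 at 1.40 (1.19 to 1.64). NFE2L1 had 127 CPM at 2 mM against 111 CPM at 0 mM (1.14, 0.997 to 1.30) and its relative NFE2L2 164 CPM and 165 CPM. MAFG, a partner of both, was at 0.908.

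By cell state, proteasome transcripts were higher in G2/M than in low-cycle cells at both doses. For the core and the regulatory sums this difference was larger than that between the doses. Each cell was thinned to 1000 UMIs, which left out 191 shallower cells at 2 mM and 56 at 0 mM, and was called G2/M at 3 or more UMIs of a G2/M gene list. Cells under that with 3 or more S-phase UMIs were called S, and all others low-cycle. Cells that passed both cuts counted as G2/M, so the G2/M class can hold replicating cells. It took 48.5% of classed cells at 2 mM and 56.4% at 0 mM. Its contrast with low-cycle cells may thus be one of cycling cells in general and not of G2/M alone. G2/M cells numbered 388 at 2 mM and 532 at 0 mM, S cells 49 and 79, and low-cycle cells 363 and 333. These states are ranges of a score and not types: 258 of 800 cells at 2 mM and 296 of 944 at 0 mM had 2 or 3 G2/M UMIs. No proteasome gene was used to place a cell, and levels were taken from the unthinned counts of these cells.

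At 2 mM the core summed to 6099 CPM (5981 to 6218) in G2/M cells and 4944 CPM (4823 to 5067) in low-cycle cells, a ratio of 1.23 (1.195 to 1.27). At 0 mM it summed to 6027 CPM (5934 to 6122) in G2/M and 5044 CPM (4926 to 5164) in low-cycle cells, a ratio of 1.195 (1.16 to 1.23). The regulatory particle differed by slightly more, at 3328 CPM in G2/M and 2612 CPM in low-cycle cells at 2 mM (1.27, 1.22 to 1.33). At 0 mM the levels were 3358 CPM in G2/M and 2614 CPM in low-cycle cells (1.28, 1.24 to 1.34). The quotient of the ratios at the 2 doses was 1.03 (0.990 to 1.08) for the core and 0.992 (0.936 to 1.05) for the regulatory particle. Cells called S lay in between, with core sums of 5242 CPM at 2 mM against 5285 CPM at 0 mM and regulatory sums of 2804 and 2836 CPM. This class leaves out replicating cells that also passed the G2/M cut. In clusters made without proteasome genes, the one led by replication genes had core sums of 6319 CPM at 2 mM and 6275 CPM at 0 mM. Its regulatory sums were 3670 and 3704 CPM, so the values of the S class do not stand for all replicating cells. The S cells were few. At 2 mM 1 member was past 1.5-fold on the higher side, against 12.6% of all genes, and 1 on the lower side, against 9.8% (22.4% either way). These were PSMD12, with 28 UMIs in S cells (ratio 1.5, 0.965 to 2.26), and PSMD10, with 5 UMIs (0.586, 0.1845 to 1.435). PSMD10 reached the 50 CPM minimum in low-cycle cells alone, where it was higher. At 0 mM 0 members were past it on either side, against 7.95% of all genes higher and 7.16% lower (15.1% either way).

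Within each cycle state the doses were close: in G2/M cells the ratio of 2 mM over 0 mM was 1.01 (0.987 to 1.04) for the core and 0.991 (0.958 to 1.02) for the regulatory particle, and in low-cycle cells 0.980 (0.947 to 1.01) and 0.999 (0.953 to 1.05).

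By member, the only ones past 1.5-fold between the doses within a state were PSMD5 and PSMD10, both lower at 2 mM in G2/M cells. PSMD5 had 50.6 CPM at 2 mM against 84.4 CPM at 0 mM there (0.599, 0.461 to 0.773), and PSMD10 had 35.7 CPM against 55.1 CPM (0.648, 0.471 to 0.881). These were 2 of 30 members, against 10.3% of all genes. Of the 2, PSMD10 reached the 50 CPM minimum only at 0 mM, the dose at which it was higher. In S cells (28 members compared) and low-cycle cells (30) the count was 0, against 21.6% and 12.3% of all genes.

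G2/M cells were also deeper, with a median of 3444 UMIs at 2 mM and 3840 at 0 mM, against 2921 and 3370 in low-cycle cells. In cells above their library's median depth the core ratio was 1.25 (1.21 to 1.30) at 2 mM and 1.22 (1.18 to 1.26) at 0 mM, and in cells below it 1.19 (1.12 to 1.27) at 2 mM and 1.095 (1.03 to 1.16) at 0 mM. The regulatory ratio was 1.28 at 2 mM and 1.30 at 0 mM in the deeper cells and 1.24 and 1.235 in the shallower ones.

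**Figure D3:**
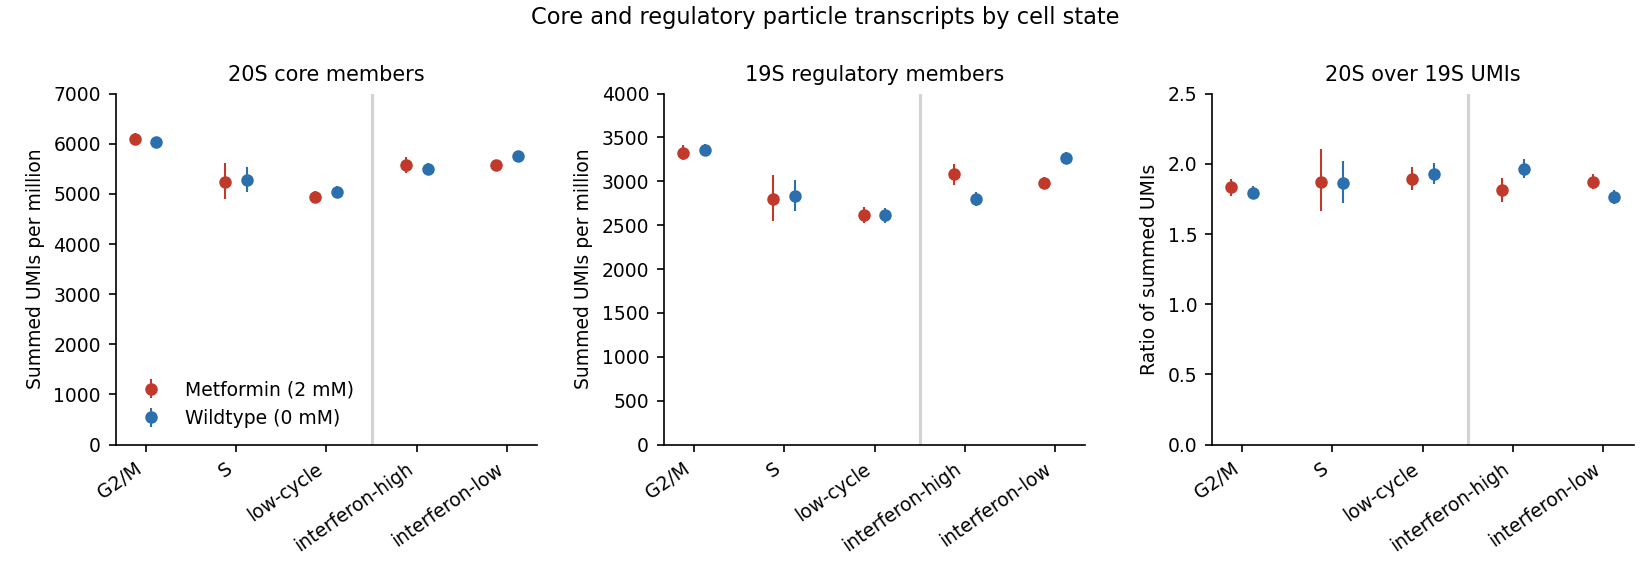
Summed CPM of the 20S core members (left), of the 19S regulatory members (middle) and their ratio (right) by cell state, at 2 mM (red) and 0 mM (blue), with 95% intervals for counting error. The cycle states stand left of the grey line and the interferon states, a second division of the same cells, right of it. Both sums are highest in G2/M cells at both doses.

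Most members had ratios of G2/M over low-cycle cells above 1. For some of these, such as PSMB4, PSMD8 and PSMD13, the counting interval included 1 at both doses. Of 30 members compared, 26 had ratios of G2/M over low-cycle cells above 1 at 2 mM and 28 at 0 mM, against 2331 of 4205 and 2309 of 4133 genes. In both libraries at once, 25 of 30 members were above 1, against 1697 of 3818 genes. The median ratio of members was 1.23 at 2 mM and 1.21 at 0 mM, and that of all genes 1.03 and 1.04. The difference was broad rather than large: 3 of 30 members passed 1.5-fold on the higher side at 2 mM, against 9.94% of all genes, and 5 at 0 mM, against 10.2% (14.6% and 15.6% either way).

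At 2 mM the members past 1.5-fold on the higher side were 2 of 16 regulatory and 1 of 12 core genes, against 9.94% of all genes. At 0 mM they were 5 of 16 and 0 of 12, against 10.2%. PSMD11, a lid subunit known to promote the joining of core and cap, had 179 CPM in G2/M and 101 CPM in low-cycle cells at 2 mM, a ratio of 1.77 (1.43 to 2.19). At 0 mM it had 197 CPM in G2/M and 128 CPM in low-cycle cells (1.53, 1.29 to 1.83). The ATPase gene PSMC3 had 247 CPM in G2/M and 161 CPM in low-cycle cells at 2 mM (1.54, 1.30 to 1.825) and 285 CPM in G2/M and 187 CPM in low-cycle cells at 0 mM (1.52, 1.32 to 1.76). These 2 genes passed at both doses. The core gene PSMB2 passed at 2 mM alone, with 339 CPM in G2/M and 220 CPM in low-cycle cells (1.54, 1.33 to 1.785), and had 319 and 262 CPM at 0 mM (1.22, 1.075 to 1.38). PSMD1, PSMD14 and PSMD12 passed at 0 mM alone, at 1.60, 1.60 and 1.525. Their ratios at 2 mM were 1.39, 1.44 and 1.28, with intervals that overlap those at 0 mM.

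Some members did not follow. PSMA6 was below 1 at both doses, at 342 CPM in G2/M and 349 CPM in low-cycle cells at 2 mM (0.981, 0.866 to 1.11) and 334 and 371 CPM at 0 mM (0.900, 0.806 to 1.01). PSMC4 was at 1.33 at 2 mM and 0.911 at 0 mM, and PSMD7 at 0.921 and 1.19. The chaperone genes PSMD5 (0.842 at 2 mM and 1.16 at 0 mM) and PSMD10 (0.663 and 1.09) also lay on both sides of 1. Both rest on low counts. PSMD10 was the only member past 1.5-fold on the lower side at 2 mM, where 4.71% of all genes were, and at 0 mM there were 0 members against 5.4% of all genes. At 2 mM PSMD10 reached the 50 CPM minimum in low-cycle cells alone, with 53.9 CPM there and 35.7 CPM in G2/M cells.

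The inducible catalytic genes did not share the G2/M difference. PSMB8 and PSMB9 with PSMB10 summed to 321.5 CPM in G2/M and 311 CPM in low-cycle cells at 2 mM (1.03, 0.905 to 1.18). At 0 mM they summed to 277 CPM in G2/M and 345 CPM in low-cycle cells (0.802, 0.713 to 0.902).

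**Figure D4:**
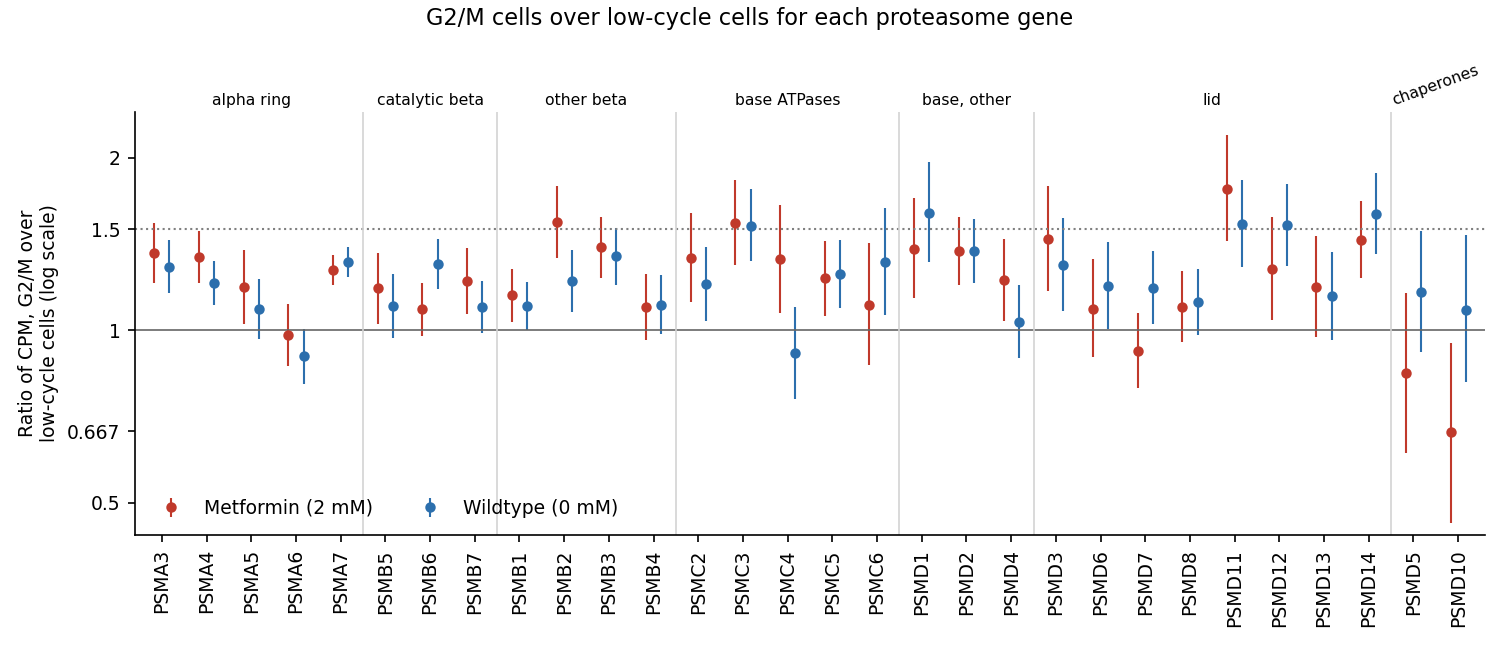
Ratio of CPM in G2/M over low-cycle cells (log axis) of the 30 members compared, at 2 mM (red) and 0 mM (blue), with 95% intervals for counting error. The dotted line marks 1.5-fold. The points of PSMD11 and PSMC3 lie above it at both doses, and those of PSMA6 below 1 at both.

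A second division of the same cells went by interferon-induced transcripts, which this line carried in part of its cells. Cells with 3 or more UMIs of a list of 18 antiviral genes, which holds no proteasome gene, were called interferon-high. They numbered 206 of 800 cells at 2 mM and 407 of 944 at 0 mM, and 98 and 128 cells had 2 or 3 such UMIs.

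Of the inducible catalytic genes, PSMB9 and PSMB8 were higher in interferon-high cells at both doses. PSMB9 had 248 CPM in interferon-high and 110 CPM in interferon-low cells at 2 mM, a ratio of 2.26 (1.875 to 2.72), and 208 and 91.5 CPM at 0 mM (ratio 2.27, 1.925 to 2.69). PSMB8 had 209 CPM in interferon-high and 147 CPM in interferon-low cells at 2 mM (1.43, 1.185 to 1.71) and 207 and 140 CPM at 0 mM (1.48, 1.27 to 1.71). PSMB10 had 6 UMIs in all cells at 2 mM and 3 at 0 mM, which is too few to compare. PSMB9 thus passed 1.5-fold at both doses, among 9.01% of all genes at 2 mM and 9.37% at 0 mM on the higher side.

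The constitutive counterparts did not mirror this. PSMB5 had 255 CPM in interferon-high and 282 CPM in interferon-low cells at 2 mM (0.903, 0.772 to 1.05) and 253 and 291 CPM at 0 mM (0.869, 0.771 to 0.979). PSMB6 was level at 465 and 480 CPM at 2 mM and 486 and 473 CPM at 0 mM. PSMB7 had 371 CPM in interferon-high and 307 CPM in interferon-low cells at 2 mM (1.21, 1.06 to 1.38) and 424 and 397 CPM at 0 mM (1.07, 0.969 to 1.17). For each UMI of the 3 constitutive catalytic genes there were 0.421 UMIs of the inducible genes in interferon-high cells (0.374 to 0.473) and 0.241 in interferon-low cells (0.220 to 0.264) at 2 mM. At 0 mM these were 0.357 (0.327 to 0.389) and 0.200 (0.183 to 0.219). Over all cells the value was 0.295 at 2 mM (0.275 to 0.316) and 0.263 at 0 mM (0.247 to 0.279), a quotient of 1.12 (1.02 to 1.23). Summed over all cells the inducible genes had 315 CPM at 2 mM against 304 CPM at 0 mM, although a smaller share of cells was interferon-high at 2 mM (25.8%, against 43.1% at 0 mM).

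**Figure D5:**
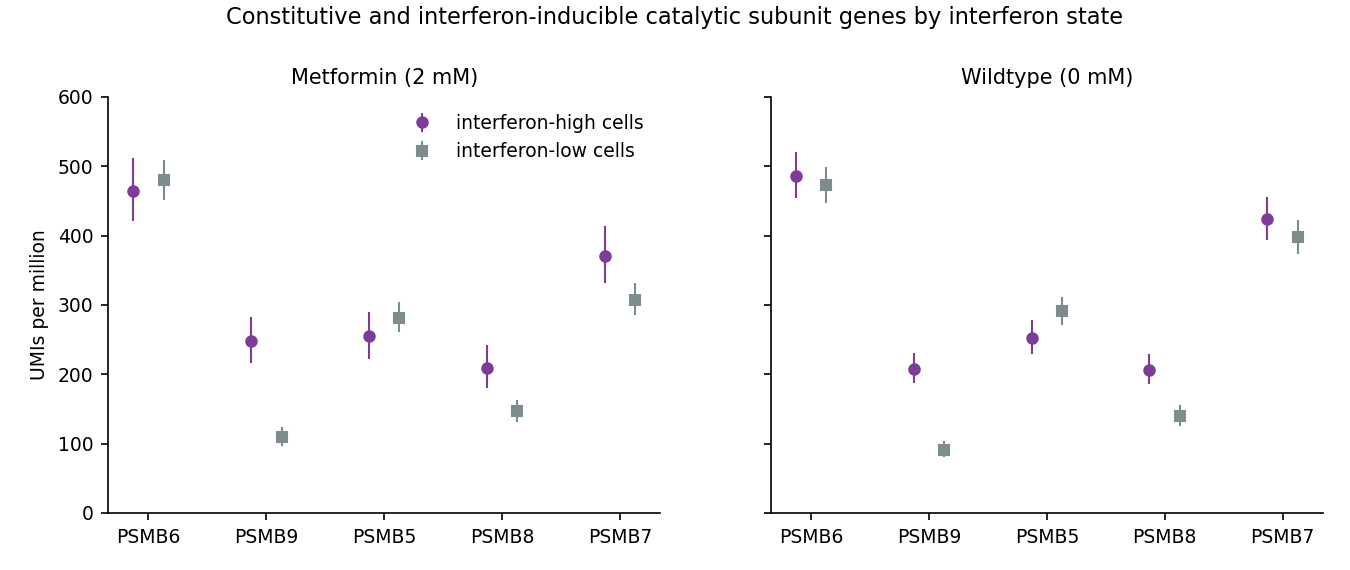
CPM of the constitutive catalytic genes PSMB5, PSMB6 and PSMB7 and of the inducible genes PSMB8 and PSMB9 in interferon-high (purple circles) and interferon-low cells (grey squares), at 2 mM (left) and 0 mM (right), with 95% Poisson intervals. PSMB9 and PSMB8 are higher in interferon-high cells in both panels.

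At 0 mM the regulatory particle was lower in interferon-high cells by more than the core was, and at 2 mM both were near level. Core sums were 5580 CPM in interferon-high and 5581 CPM in interferon-low cells at 2 mM (0.9997, 0.967 to 1.03), and 5503 and 5758 CPM at 0 mM (0.956, 0.931 to 0.981). Within low-cycle cells at 0 mM the core ratio lay on the other side of 1, at 1.04 (0.995 to 1.09). Regulatory sums were 3079 CPM in interferon-high and 2979 CPM in interferon-low cells at 2 mM (1.03, 0.988 to 1.08), but 2798 and 3265 CPM at 0 mM (0.857, 0.827 to 0.888), where within low-cycle cells the ratio was 0.921 (0.862 to 0.984). The core to regulatory ratio was therefore 1.81 in interferon-high (1.73 to 1.90) and 1.87 in interferon-low cells (1.82 to 1.93) at 2 mM, and 1.97 (1.90 to 2.04) and 1.76 (1.72 to 1.81) at 0 mM. In the 0 mM library 13 of 16 regulatory genes compared had lower levels in interferon-high cells, against 2440 of 4153 genes, led by PSMD8 with 203 and 296 CPM (0.684, 0.6015 to 0.778). At 2 mM PSMD8 had 286 CPM in interferon-high and 273 CPM in interferon-low cells (1.05, 0.904 to 1.22), and 7 of 16 were lower, against 2520 of 4217 genes. None of the 29 members compared at 2 mM and the 30 compared at 0 mM passed 1.5-fold, against 19.1% of all genes at 2 mM and 19.6% at 0 mM. On the lower side alone these shares were 10.1% and 10.2%. All genes had a median log2 ratio of -0.09 in each library. Between the doses, 0 members passed 1.5-fold in interferon-high or in interferon-low cells, against 12.9% and 11.2% of all genes, while 14 of 16 regulatory genes were above 1 in interferon-high and 4 of 16 in interferon-low cells. Of all genes, 2140 of 4105 and 2144 of 4146 were above 1 in these states.

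Members also differed in direction inside the core. PSMA7 was lower in interferon-high cells at both doses, at 1341 CPM in interferon-high and 1567 CPM in interferon-low cells at 2 mM (0.856, 0.8005 to 0.914) and 1224 and 1474 CPM at 0 mM (0.830, 0.787 to 0.876). PSMA4, in the same ring, was higher at both, with 558 and 495 CPM at 2 mM (1.13, 1.01 to 1.25) and 650 and 535 CPM at 0 mM (1.215, 1.12 to 1.32). PSMA5 was at 1.14 at 2 mM and 1.18 at 0 mM. The ATPase gene PSMC2 lay on opposite sides, with 223 CPM in interferon-high and 168 CPM in interferon-low cells at 2 mM (1.325, 1.11 to 1.58) and 184 and 229 CPM at 0 mM (0.805, 0.7005 to 0.924).

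In single cells thinned to 1000 UMIs, core transcripts were found in nearly every cell. The mean was 5.58 core UMIs per cell at 2 mM and 5.42 at 0 mM, with a median of 5 in both, and 13 of 800 and 11 of 944 cells had 0. Regulatory transcripts averaged 2.90 and 3.02 UMIs, with 70 and 59 cells at 0. PSMA7 was seen in 75% of cells at 2 mM and 68.5% at 0 mM, and in 89.6% of unthinned cells at both doses. Other members were seen in fewer thinned cells, such as PSMB6 in 37.8% at 2 mM and 34.0% at 0 mM and PSMD14 in 18.8% and 16.7%. There is no cell type in the line that lacks the proteasome, so the level given by free RNA was not measured.

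The spread over cells was small. The variance of the core sum was 1.49 times its mean at 2 mM and 1.325 times at 0 mM, and that of the regulatory sum 1.29 and 1.30 times. Sampling alone gives about 1. For the G2/M list it was 11.5 and 11.4 times and for the interferon list 24.2 and 19.6 times. Cells with 9 or more core UMIs had a mean of 3.86 regulatory UMIs at 2 mM (126 cells) and 3.67 at 0 mM (120 cells), and cells with 0 to 2 core UMIs 2.21 (98 cells) and 2.67 (130 cells). G2/M UMIs moved with this, at 7.01 and 7.69 per cell in the first class and 4.35 and 5.12 in the second, and their part in it was not tested.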

How the data were processed

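The authors deposited whole counts of UMIs for 19826 genes in 2000 barcodes, 1000 per library, and the table's columns were mapped to libraries by the start of their names. Per the submitters' processing notes, bcl2fastq, STAR 2.5.0a and build hg19 were used; how barcodes were selected, UMIs collapsed and strand or annotation set was not given in the sources used for this text. Genes with processed copies or overlapping genes therefore carry uncertain counts.

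A barcode counted as a cell from 500 UMIs and 300 genes upwards. Counts were summed per library or cell state and divided by that total (CPM). Ratios have exact conditional (Clopper-Pearson) 95% intervals and sums exact Poisson ones; quotients of ratios have log-normal counting intervals. All treat UMIs as independent draws and are too narrow. No test was possible with a single library for each dose. Ratios needed 50 CPM in either group and 50 UMIs over both. A gene near this minimum can enter through the group where it is higher alone, which favours large ratios. No doublet caller was run, so doublets that join cells of unlike states were not removed. The ratio interval was tested on simulated counts. States used thinned counts (hypergeometric, fixed seed). Members, lists and the rule for fully described genes (past 1.5-fold, or the 3 highest and 3 lowest of core and regulatory particle by the interval bound nearest 1, catalytic subunits, PSMD14, PSMD4 and the inducible subunits) were chosen with earlier results of these data known. Other genes named by cell state were chosen after their values were seen. Alternatives used edgeR 4.0.16 for TMM and scanpy 1.11.5 with leidenalg 0.10.2 for clusters made without proteasome genes.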

Additional observations from a re-analysis of the deposited data

Results flagged for a closer look

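Results were singled out where the counting intervals at the 2 doses, or in 2 cell states, lay on opposite sides of 1. With 1 library per dose the differences themselves were not tested.

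All of them fell in the interferon states, and all but 1 concern the 19S particle. The 6 base ATPase genes summed to 985 CPM in interferon-high and 834 CPM in interferon-low cells at 2 mM, a ratio of 1.18 (1.09 to 1.28), and to 883 and 1002 CPM at 0 mM, where the ratio was 0.881 (0.827 to 0.939). The quotient of these ratios was 1.34 (1.21 to 1.48). Seen the other way, the ATPase ratio of 2 mM over 0 mM was 1.12 (1.03 to 1.21) in interferon-high and 0.833 (0.785 to 0.884) in interferon-low cells, the same quotient of 1.34. For the whole regulatory sum the dose ratio was 1.10 (1.05 to 1.15) in interferon-high and 0.912 (0.883 to 0.942) in interferon-low cells, a quotient of 1.21. For the lid it was 1.09 (1.01 to 1.16) and 0.918 (0.877 to 0.961), a quotient of 1.18. Among single genes, the ATPase gene PSMC2 had a dose ratio of 1.21 (1.01 to 1.45) in interferon-high and 0.736 (0.6455 to 0.839) in interferon-low cells. The quotient was 1.645, and it is the same for its ratios of interferon-high over interferon-low cells at the 2 doses. UFD1L, a cofactor of the unfolding ATPase VCP and no part of the 19S particle, had dose ratios of 1.37 (1.07 to 1.76) and 0.783 (0.648 to 0.944), a quotient of 1.755.

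The ATPase ratio of interferon-high over interferon-low cells kept its side of 1 in G2/M cells (1.27 at 2 mM and 0.888 at 0 mM) and in low-cycle cells (1.16 and 0.942, the second with an interval of 0.837 to 1.06). It also did so in cells above the median depth (1.17 and 0.901) and below it (1.20 and 0.816). The regulatory and lid sums held less well. In low-cycle cells the regulatory ratio of interferon-high over interferon-low cells was 0.988 at 2 mM and 0.921 at 0 mM, and the lid ratio 0.939 and 0.874, so both doses lay below 1. In G2/M cells the regulatory ratio was 1.10 and 0.8575 and the lid ratio 1.04 and 0.844.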

How the results depend on the processing

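All values here are log2 ratios unless stated. The dose ratio of the core sum, -0.02, was -0.10 with TMM factors, 0.038 with cells weighted equally, 0.013 once the deepest 5% of barcodes were dropped and -0.068 without PSMA7. That of the regulatory sum, -0.04, was -0.13 with TMM factors, and the quotient of core over regulatory, 0.02, was 0.10 with cells weighted equally. With TMM factors 1 member (PSMD5) passed 1.5-fold, and with no CPM minimum 1 (PSMC1). The shares of all genes at these 2 settings are not given here. The G2/M ratio of the core, 0.30 at 2 mM and 0.26 at 0 mM, was 0.22 at 2 mM at a threshold of 2 UMIs, 0.37 at 2 mM at 5 UMIs, and 0.35 and 0.31 for the G2/M-led cluster. That of the regulatory sum, 0.35 and 0.36, was 0.26 and 0.28 at 2 UMIs and 0.45 in both libraries at 5 UMIs. At 0 mM it was 0.45 after thinning to 500 UMIs and 0.42 by cluster. The interferon ratio of the core at 2 mM, 0.00, was 0.066 at 5 UMIs.

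Alternatives chosen after seeing the data split the cells further. Within interferon-high cells the G2/M ratio was 0.37 and 0.17 for the core and 0.47 and 0.27 for the regulatory sum, at 2 mM and 0 mM, and within interferon-low cells 0.32 for the core at 0 mM. In cells below the median depth it was 0.26 and 0.13 for the core and 0.30 for the regulatory sum at 0 mM. The interferon ratio within G2/M cells at 2 mM was 0.060 for the core and 0.14 for the regulatory sum. At 0 mM the core ratio turned round within low-cycle cells, to 0.061 against -0.07, and the regulatory ratio was -0.12 there and -0.28 below the median depth, against -0.22. The causes were not tested. The other 111 values of these sums and counts stayed within the counting interval of the value reported or, for counts of members, within 1.5 times it. Of 258 values of single genes and pathway lists, 254 stayed within the counting interval (genes) or within 0.1 (list medians); the other 4 were PSMA7 with TMM factors (0.048) and with cells weighted equally (0.23), against 0.13, and the medians of the delivery (-0.089) and transcription (-0.11) lists with cells weighted equally.

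No paired analysis was possible because each dose has 1 library. Dose cannot be told apart from anything else that differed between the 2 cultures or libraries.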

Other observations

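Clusters of the cells of both libraries, made without proteasome genes, differed in their proteasome level more than the doses did. Cluster 4, led by the mitotic genes CCNB1, KIF20A and PLK1 (80 cells at 2 mM and 90 at 0 mM), had core sums of 6957 CPM at 2 mM against 6788 CPM at 0 mM and regulatory sums of 3711 and 3933 CPM. Cluster 3, led by the replication genes FAM111B, RRM2 and CLSPN (108 and 133 cells), had core sums of 6319 and 6275 CPM and regulatory sums of 3670 and 3704 CPM. Cluster 0, led by FBXO32, CXCL1 and SLC26A2 (447 and 157 cells), had 5191 and 4497 CPM of core and 2602 and 2527 CPM of regulatory transcripts. Cluster 1, with the interferon-induced genes OASL, GBP4 and RSAD2 among its leading genes (202 and 301 cells), had 1.76 core UMIs per regulatory UMI at 2 mM (1.67 to 1.85) and 2.03 at 0 mM (1.95 to 2.11). In cluster 0 the order was the other way round, at 1.995 (1.92 to 2.08) and 1.78 (1.68 to 1.88). The inducible catalytic genes summed to 424 and 425 CPM in cluster 1 at 2 mM and 0 mM, and to at most 316.5 CPM in any other cluster of either library.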
